A study of Mus musculus with 8 samples.

Results

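The circadian clock genes *Per1*, *Per2*, *Per3*, *Cry1*, *Cry2*, *Dbp*, *Nr1d1*, *Nr1d2*, *Arntl* and *Ciart* were followed in RNA-seq libraries of the primary motor cortex (M1) of adult mice. These 10 genes were chosen by name from the 38031 genes of the count table, as genes of the core loop and its best known outputs. *Clock* and *Npas2*, also of the loop, are described with other clock genes. The rule used no measured value, but the choice was made with earlier results of these data known. Male wild type Swiss Webster mice were injected in M1 at P21 to P25 with a lentivirus carrying mCherry and either *Fezf2 shRNA* or *non-silencing shRNA* (control), both under a rat *Synapsin I* promoter fragment, which restricts expression to neurons. M1 was dissected by its mCherry signal at P49 to P53, 4 weeks after injection, and total RNA was sequenced in 1 library per animal, with 4 libraries for each treatment. The tissue held all cell types of the cortex and cells that the virus had not reached. The comparison of treatments asked whether a lower *Fezf2* level was accompanied by a change in clock gene expression. The comparison of libraries asked whether the animals differed in clock state.

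The mammalian clock is a transcriptional loop. The activators CLOCK or NPAS2, paired with ARNTL (also called BMAL1), bind E-boxes and switch on the *Per*, *Cry*, *Ciart*, *Nr1d1*, *Nr1d2* and *Dbp* genes, and PER, CRY and CIART proteins then repress the activators. The nuclear receptors NR1D1 and NR1D2 (REV-ERB alpha and beta) repress *Arntl* through ROR elements, where RORA and RORB activate it, and DBP, TEF and HLF compete with the repressor NFIL3 at D-boxes. *Arntl* RNA therefore peaks at about the opposite time of day from *Dbp* and the *Per* genes, and *Cry1* peaks between them. The suprachiasmatic nucleus sets the phase from light, and the cortex runs its own copy of the loop.

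The elements through which the loop is wired were looked up in RefSeq promoter windows (GRCm38.p6), from 250 bases before to 50 bases after the annotated start. Of the members, 9 had an entry, with 11 windows. On both strands, the E-box CACGTG, its variant CACGTT, the D-boxes TTATGTAA and TTACGTAA, the ROR elements TAGGTCA and TGGGTCA, and the cyclic AMP response element TGACGTCA were searched. These elements do not overlap one another in the windows printed here, and the 30 bases around each match are given on the strand of the gene, with the motif in capitals. *Ciart* is on the minus strand of chromosome 3, and the first bases of its E-boxes lie 116, 58 and 44 bases before its start, at chr3:95882327-95882356, chr3:95882269-95882298 and chr3:95882255-95882284. They are shown first because *Ciart* varied among the libraries about as widely as *Dbp*.

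Ciart E-box 116: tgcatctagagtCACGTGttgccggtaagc
Ciart E-box 58: cgcagggggaggCACGTGcagaaccgcacg
Ciart E-box 44: cgtgcagaaccgCACGTGtctgggaggggg

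Of all 32851 windows, 7.15% held an E-box, and 29 windows (0.0883%) held 3 or more. Among the 11 member windows, 3 held an E-box, in *Ciart*, *Cry1* and *Per1*, and those of *Dbp*, *Per3* and *Nr1d2* held none. Whether these elements bear on the spread among libraries was not tested. *Per3*, on the minus strand of chromosome 4, had a pair of D-boxes, 205 and 158 bases before its start, at chr4:151044852-151044881 and chr4:151044805-151044834. The D-box is the element that DBP, TEF and HLF bind, and 1.06% of all windows held at least 1 and 8 windows (0.0244%) held 2 or more.

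Per3 D-box 205: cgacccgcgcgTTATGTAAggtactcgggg
Per3 D-box 158: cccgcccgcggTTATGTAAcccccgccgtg

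*Per1* (plus strand, chr11:69098771-69098800) and *Cry1* (minus strand, chr10:85185097-85185126) each held an E-box, 166 and 60 bases before the start. The variant CACGTT, present in 4.68% of all windows, was found on the opposite strand, and so reads AACGTG here, in *Cry2* (minus strand, chr2:92434218-92434247), *Nr1d1* (minus strand, chr11:98775388-98775417) and *Cry1* (chr10:85185116-85185145). They are given to show which members share the element that the activators bind.

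Per1 E-box 166: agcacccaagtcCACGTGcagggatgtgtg
Cry1 E-box 60: ggtgccggtggtCACGTGgggtgcatgccg
Cry1 variant 79: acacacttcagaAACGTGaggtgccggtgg
Cry2 variant 166: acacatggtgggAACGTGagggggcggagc
Nr1d1 variant 28: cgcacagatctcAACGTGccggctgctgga

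*Arntl*, on the plus strand of chromosome 7, was the only member with a ROR element in these windows, 30 bases past its start (chr7:113207530-113207559). Such an element was present in 6.45% of all windows, and the cyclic AMP response element in 1.79% and in 0 of the 11 member windows.

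Arntl ROR element: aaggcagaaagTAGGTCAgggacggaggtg

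The libraries held 54684016 to 58003814 counts on 1 transcript per gene. Reads were counted on both strands from the first to the last base of a transcript, introns and all, so overlapping genes share reads. The test covered genes over 8 CPM (counts scaled to library size) in 4 or more libraries, which left 9959 genes and 8 of the 10 members. *Cry1* (mean 7.84 CPM) and *Ciart* (mean 7.79 CPM) did not pass, and their tests are from a fit of the 16481 genes over 1 CPM. *Fezf2* itself had 687.5, 767.0, 734.7 and 702.2 normalized counts in control replicates 1 to 4 and 620.6, 582.9, 568.3 and 592.5 in *Fezf2 shRNA* replicates 1 to 4, so the treatments did not overlap. Its log2 fold change was −0.29 (SE 0.0760, adjusted p = 0.0765 from edgeR and 0.0256 from DESeq2, which called it). The two-sided exact permutation p was 0.0286, the smallest that 4 against 4 allows. With an offset for gene length, the log2 fold change was −0.18 (adjusted p = 0.433 from edgeR). Of all genes tested, 11.8% had treatments that did not overlap. Markers of cortical projection neurons were high in every library (*Slc17a7*, 27012 to 34971 normalized counts). *Six6* and *Nms*, which mark the suprachiasmatic nucleus, were at 0 in all 8 libraries. Summed oligodendrocyte markers ran from 1031 to 1903 CPM in control and from 773 to 1281 CPM in *Fezf2 shRNA*-treated samples, and summed markers of meninges and fibroblasts from 7.94 to 30.9 CPM and from 7.24 to 38.4 CPM. In such bulk tissue, fewer cells of a type and less RNA per cell cannot be told apart.

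None of the 10 clock genes passed the test between treatments, and the treatments overlapped for each of them. With the thresholds of the study (adjusted p up to 0.05, log2 fold change of 0.2 or more in either direction), edgeR's quasi-likelihood test called 0 of the 8 members that passed the filter, where 2.19% of all genes tested were called. At an unadjusted p under 0.05 the count was again 0 (19.7% of all genes tested), and DESeq2 also called 0 (7.55% of all genes tested). In the fit of genes over 1 CPM, 0 of the 10 members were called (0.674% of all genes in it). The log2 fold change was positive for 4 members and negative for 4, with a median of −0.04 (−0.03 over all genes tested). The levels of several members differed from library to library within each treatment, for *Dbp* 2.75 times among control and 2.97 times among *Fezf2 shRNA* libraries.

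**Figure D1:**
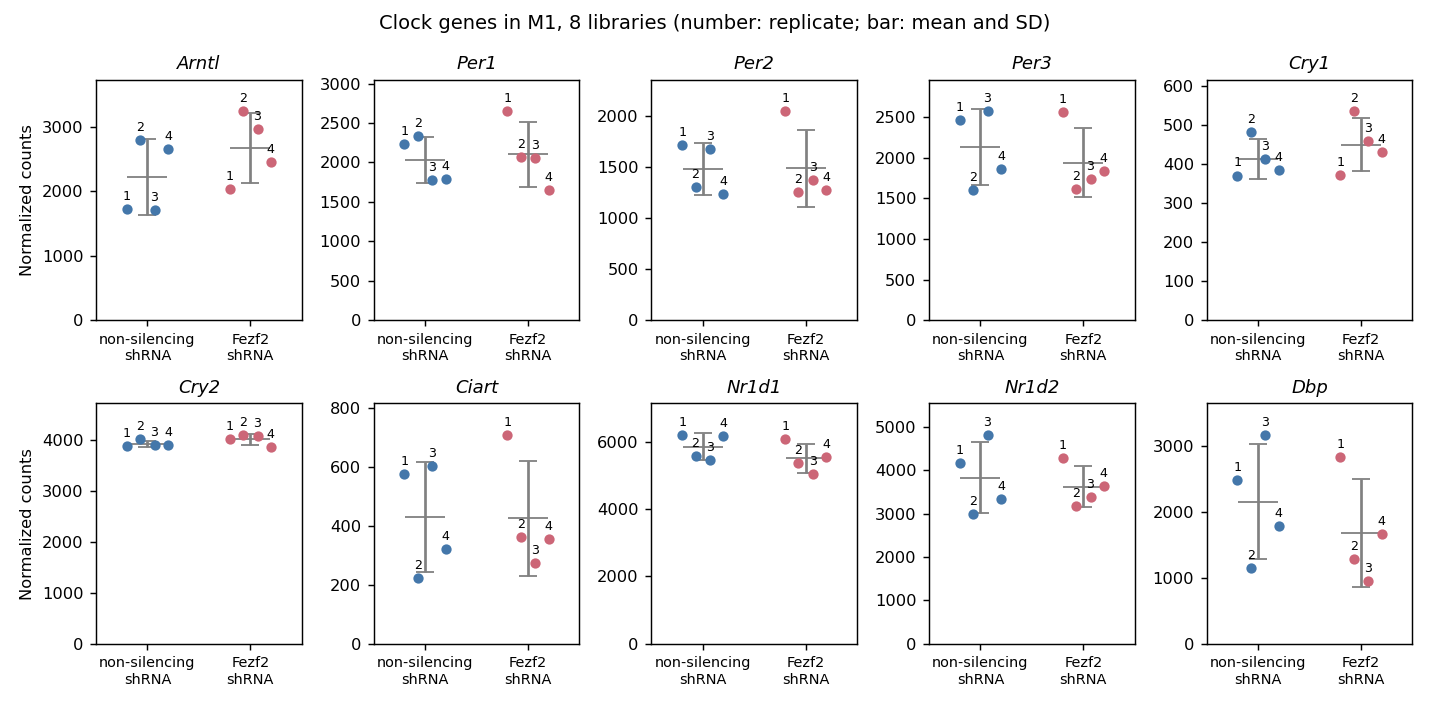
Normalized counts (y axis, from 0) of the 10 clock genes in each library of M1, by treatment (x axis); points are libraries with their replicate number, and the bars are the mean and SD of 4 libraries. In *Dbp*, *Ciart*, *Per2*, *Per3* and *Nr1d2*, control replicates 1 and 3 and *Fezf2 shRNA* replicate 1 lie above the other libraries, and in *Arntl* they lie below them, while *Cry2* stays between 3859 and 4097 counts.

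*Arntl* encodes the activator that every arm of the loop depends on. It was counted over ENSMUST00000047321 (chr7:113207465-113314126, plus strand, 20 exons), of which 2.73% is exonic, so most of its counts could fall in introns. Its normalized counts were 1719, 2798, 1717 and 2662 in control replicates 1 to 4 and 2032, 3250.1, 2964 and 2459.8 in *Fezf2 shRNA* replicates 1 to 4. The lowest values were those of control replicates 3 and 1 and *Fezf2 shRNA* replicate 1, and the treatments overlapped. The means were 2224 ± 587 and 2677 ± 540 (SD, n = 4 each). The log2 fold change of 0.27 (SE 0.188) was not called (adjusted p = 0.443 from edgeR, exact permutation p = 0.257). Within treatments, the SD of log2 CPM was 0.35.

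The *Per* genes encode the repressors whose RNA follows the activators most directly. *Per1*, which also responds quickly to light and neuronal activity, was counted over ENSMUST00000021271 (chr11:69098948-69109960, plus strand, 23 exons). It had 2239, 2334, 1776 and 1787 normalized counts in the control libraries and 2652, 2064, 2051 and 1654 in the *Fezf2 shRNA* libraries. Its order was its own, since control replicate 3, high for *Dbp*, was among the lowest here and control replicate 2 was among the highest. The log2 fold change was 0.05 (SE 0.140, adjusted p = 0.866 from edgeR, exact permutation p = 0.83). *Per2*, whose protein carries CRY into the nucleus and is needed for a stable rhythm, was counted over ENSMUST00000069620 (chr1:91415982-91459324, minus strand, 23 exons). It had 1710.5, 1297.5, 1677 and 1229 normalized counts in the control libraries and 2045, 1250.2, 1365.5 and 1274 in the *Fezf2 shRNA* libraries. *Fezf2 shRNA* replicate 1 stood above the other 3 of its treatment, and the log2 fold change between treatments was 0.00 (SE 0.167, adjusted p = 0.991 from edgeR, exact permutation p = 0.943).

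*Per3*, a weaker repressor and an output of the loop, was counted over ENSMUST00000103204 (chr4:151003652-151044665, minus strand, 21 exons). It had 2472, 1607, 2579 and 1865.5 normalized counts in the control libraries and 2572, 1612, 1746 and 1841 in the *Fezf2 shRNA* libraries. Control replicates 1 and 3 and *Fezf2 shRNA* replicate 1 were again the highest, and the log2 fold change was −0.13 (SE 0.174, adjusted p = 0.694 from edgeR, exact permutation p = 0.600). All of *Per3* lies inside *Camta1*, a long gene on the same strand, so that intronic reads of *Camta1* enter the counts. *Camta1* itself had 14097 to 18121 normalized counts. An interval of *Per3* near its 3′ end (ENSMUST00000138052, 29.6% exonic) varied 2.02 times among the libraries and an interval of its 5′ part (ENSMUST00000128283, 10.4% exonic) varied 1.82 times. In both intervals control replicates 1 and 3 and *Fezf2 shRNA* replicate 1 were the highest, with 984.5 to 1120.3 normalized counts against 555 to 771 in the other libraries for the 3′ interval, and 1183 to 1362 against 750.5 to 1019 for the 5′ interval.

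The cryptochromes are the strongest repressors of the loop, and *Cry2* varied least of all members. *Cry1* (ENSMUST00000020227, chr10:85131700-85185064, minus strand, 13 exons) had 369.8, 482, 413 and 383 normalized counts in the control libraries and 371, 535, 459 and 429 in the *Fezf2 shRNA* libraries. The highest libraries were *Fezf2 shRNA* replicate 2 and control replicate 2, which were low for *Dbp*. Its log2 fold change was 0.12 (SE 0.134, adjusted p = 0.677 from edgeR over genes above 1 CPM, exact permutation p = 0.457). *Cry2* (ENSMUST00000090559, chr2:92403646-92434043, minus strand, 12 exons) had 3867.5, 4013, 3901 and 3899 normalized counts in the control libraries and 4006, 4097, 4078.5 and 3859 in the *Fezf2 shRNA* libraries. The highest library was 1.06 times the lowest, and the log2 fold change was 0.03 (SE 0.0511, adjusted p = 0.746 from edgeR, exact permutation p = 0.257). Of the *Cry2* interval, 77.0% also lies under *D930015M05Rik* on the opposite strand, and reads of the pair cannot be told apart. A shorter interval of *Cry2* (ENSMUST00000125488, 23.4% exonic) varied more, 1.64 times, from 449 counts in *Fezf2 shRNA* replicate 1 to 738.5 in replicate 3.

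*Ciart* encodes CHRONO, a repressor that binds ARNTL. It was counted over ENSMUST00000036418 (chr3:95878505-95882231, minus strand, 6 exons) and had 574, 224, 602 and 320.0 normalized counts in the control libraries and 708, 363, 273 and 354.5 in the *Fezf2 shRNA* libraries. *Fezf2 shRNA* replicate 1 and control replicates 3 and 1 were highest, and control replicate 2 was lowest, 3.16 times below the highest. The log2 fold change between treatments was −0.02 (SE 0.338, adjusted p = 0.987 from edgeR over genes above 1 CPM, exact permutation p = 1). The whole of *Ciart* lies under the antisense gene *C920021L13Rik*, which had 334 to 841 normalized counts, and reads of the pair cannot be told apart.

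*Nr1d1* and *Nr1d2* encode the receptors that repress *Arntl*. *Nr1d1* (ENSMUST00000064941, chr11:98767932-98775333, minus strand, 8 exons) had 6206.5, 5577, 5466 and 6176 normalized counts in the control libraries and 6081, 5379.7, 5051 and 5537 in the *Fezf2 shRNA* libraries. The treatments overlapped, and the log2 fold change was −0.09 (SE 0.0727, adjusted p = 0.517 from edgeR, exact permutation p = 0.20). The first 1075 bases of this interval, from 98767932 to 98769006, also belong to *Thra* on the opposite strand, which had 13051 to 15009 normalized counts. An interval of *Nr1d1* outside *Thra* (ENSMUST00000139220, chr11:98769347-98770426, 72.3% exonic) varied 1.75 times, against 1.23 times for the whole gene. Its highest libraries were control replicate 1 with 478 and *Fezf2 shRNA* replicate 1 with 454 normalized counts, and its lowest was control replicate 2 with 272.5.

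*Nr1d2* (ENSMUST00000090543, chr14:18204054-18239127, minus strand, 8 exons) had 4182, 2999, 4823 and 3334 normalized counts in the control libraries and 4279, 3179.8, 3391 and 3641 in the *Fezf2 shRNA* libraries. Control replicates 1 and 3 and *Fezf2 shRNA* replicate 1 were the 3 highest, as for *Per3*. The log2 fold change was −0.08 (SE 0.144, adjusted p = 0.774 from edgeR, exact permutation p = 0.771).

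*Dbp* encodes the D-box activator and is the output of the loop with the widest daily swing in many tissues. It was counted over ENSMUST00000080885 (chr7:45705088-45710203, plus strand, 4 exons). Its normalized counts were 2496, 1154, 3177 and 1793.5 in the control libraries and 2843, 1286, 958 and 1666 in the *Fezf2 shRNA* libraries. Control replicate 3 was 2.75 times control replicate 2, and *Fezf2 shRNA* replicate 1 was 2.97 times *Fezf2 shRNA* replicate 3. The means were 2155 ± 874 and 1688 ± 822 (SD, n = 4 each), with a log2 fold change of −0.35 (SE 0.346, adjusted p = 0.589 from edgeR, exact permutation p = 0.429). It was −0.73 without *Fezf2 shRNA* replicate 1 and −0.10 without control replicate 3, and neither fit called it. Its last 737 bases, 14.4% of the interval, overlap *Sphk2* on the opposite strand, which had 541 to 760 normalized counts, with its lowest values in control replicate 1 and *Fezf2 shRNA* replicate 1.

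**Figure D2:**
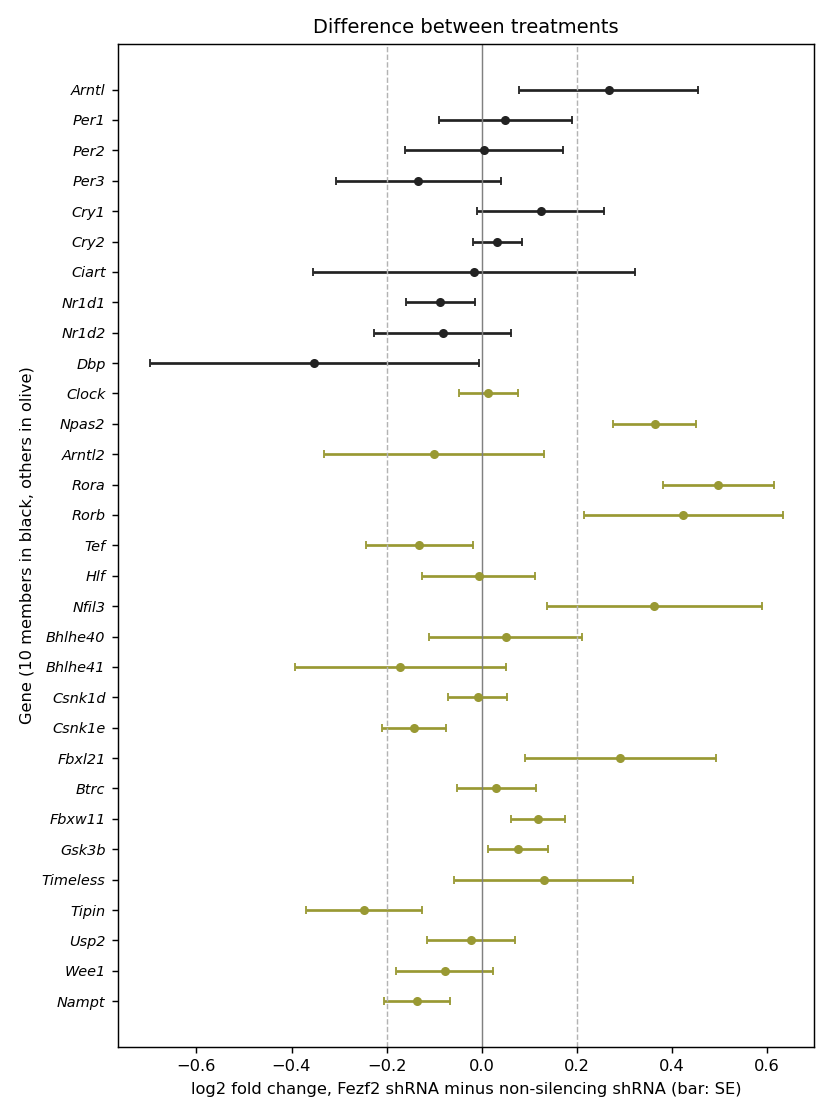
Log2 fold change of *Fezf2 shRNA* over *non-silencing shRNA* (x axis) for the 10 members (black) and other clock genes (olive), with the standard error of the fit as bars and dashed lines at the threshold of 0.2. Among the members, *Arntl* (0.27) and *Dbp* (−0.35) lie past a dashed line but with standard errors of 0.188 and 0.346; among the others, *Npas2* (0.36) and *Rora* (0.50) lie past it with smaller ones.

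Per length of the interval, *Nr1d1* had the highest mean of the members, 768 normalized counts per kb, followed by *Dbp* with 376. Reads of *Thra* enter the value of *Nr1d1*, since 1075 bases of its interval also belong to *Thra*. The *Nr1d1* interval outside *Thra*, of 1080 bases, had 272.5 to 478 normalized counts, so the first place of *Nr1d1* is not certain. *Per1* (188), *Cry2* (130.4), *Ciart* (115) and *Nr1d2* (106) followed, and then *Per3* (49.7), *Per2* (34.2), *Arntl* (22.97) and *Cry1* (8.06). Since introns are counted, these values favour short genes over long ones and are a description of these intervals only.

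Within each treatment, the levels of several clock genes, but not all, divided the libraries in a similar way. For 5 of the 10 members (*Per2*, *Per3*, *Dbp*, *Nr1d2* and *Ciart*), the 3 highest of the 8 libraries were control replicates 1 and 3 and *Fezf2 shRNA* replicate 1, and for *Arntl* the same libraries were the 3 lowest. *Per1*, *Nr1d1*, *Cry1* and *Cry2* had other orders. Of all 9959 genes tested, 2.65% had these libraries as their 3 highest and 2.84% had them as their 3 lowest. The 3 libraries were taken from the values of the members themselves, so these shares give a scale and no test. A clock balance was computed for each library as the mean log2 CPM of *Per1*, *Per2*, *Per3*, *Cry2*, *Dbp*, *Nr1d1*, *Nr1d2* and *Ciart* minus that of *Arntl*, each gene centred on its mean over the libraries. A high balance means that the mean of these genes was high relative to *Arntl*, and not that each of them was high. In control replicate 3, which had the highest balance, *Per1* (−0.20), *Nr1d1* (−0.05) and *Cry2* (−0.02) lay below their means. The balance gives no hour of the day, and the hour at which each animal was killed is not given in the sources used here.

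The balance was 0.72, −0.48, 0.74 and −0.27 in control replicates 1 to 4, and 0.62, −0.61, −0.56 and −0.16 in *Fezf2 shRNA* replicates 1 to 4. Control libraries spanned 1.22 and *Fezf2 shRNA* libraries 1.23 log2 units, so that each treatment held libraries at both ends. The means were 0.18 ± 0.64 in control and −0.18 ± 0.57 in *Fezf2 shRNA*-treated samples (SD, n = 4 each), and the difference of −0.36 was smaller than the SD within either treatment. It ran from −0.62 without *Fezf2 shRNA* replicate 1 to −0.17 without control replicate 3. With an offset for gene length it was −0.20. As a score over chosen genes, the balance was given no test.

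**Figure D3:**
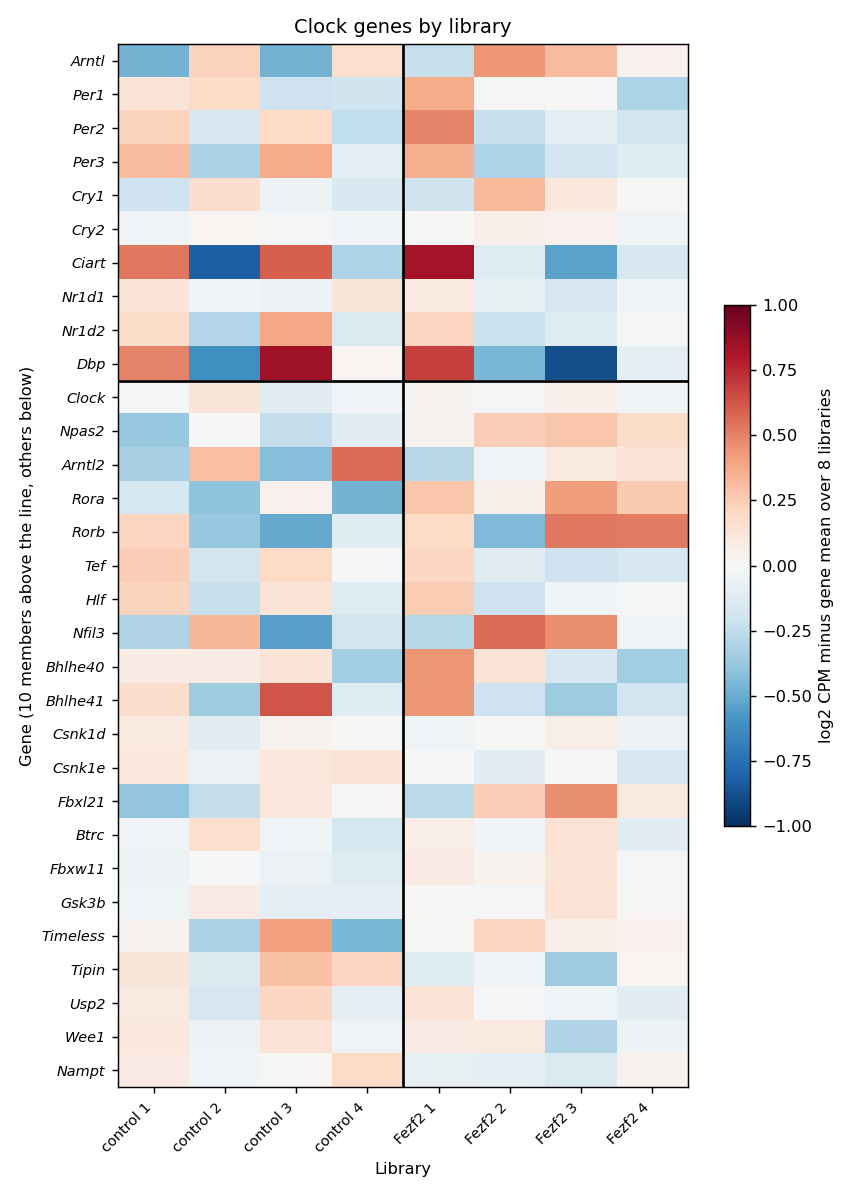
Log2 CPM of each clock gene (rows) in each library (columns), minus the mean of that gene over the 8 libraries; red is higher and blue lower, and colours stop at 1 log2 unit. *Dbp*, *Ciart*, *Per2*, *Per3*, *Nr1d2*, *Tef*, *Hlf* and *Bhlhe41* are red in control replicates 1 and 3 and *Fezf2 shRNA* replicate 1, where *Arntl*, *Npas2* (control only) and *Nfil3* are blue.

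The spread within treatments set several members apart from most genes. By the SD of log2 CPM within treatments, *Dbp* (0.65) had rank 77 of the 9959 genes tested, *Arntl* (0.35) rank 285, *Per3* (0.31) rank 360, *Per2* (0.29) rank 423, *Nr1d2* (0.26) rank 638 and *Per1* (0.25) rank 728. *Nr1d1* (0.10) had rank 6361 and *Cry2* (0.03) rank 9918. Among the 16481 genes over 1 CPM, *Ciart* (0.64) had rank 372 and *Cry1* (0.19) rank 6133. The raw counts of *Dbp* ran from 963 to 3230 and those of *Ciart* from 217 to 702, so that counting error was small beside these differences. With 1 library per animal, a difference between animals and a difference between libraries cannot be told apart.

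After the mean of each treatment was subtracted, the log2 CPM of *Dbp* over the 8 libraries had a Pearson r of 0.96 with *Ciart*, 0.93 with *Per3*, 0.91 with *Nr1d2* and 0.80 with *Per2*. It was 0.56 with *Nr1d1*, 0.08 with *Per1*, −0.55 with *Cry2*, −0.72 with *Cry1* and −0.90 with *Arntl*. These values describe 8 libraries that share a sequencing experiment, with 2 means removed, and no test was made of them. Without the libraries farthest from the median of *Dbp* (control replicate 3 and *Fezf2 shRNA* replicate 3), r was 0.95 for *Ciart*, 0.97 for *Per3*, 0.97 for *Nr1d2*, 0.83 for *Per2* and −0.90 for *Arntl*. *Per1* had its own order of libraries (r = 0.25 without these), and *Nr1d1* had an r of 0.89 without them.

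The genes most like *Dbp* in this measure, of 9951 tested outside the members, were *Map2k6*, a MAP kinase kinase (r = 0.99), the small nucleolar RNA *Snora68* (0.99), *Paxx*, a factor of DNA end joining (0.99), *C920021L13Rik* (0.99) and *Cipc* (0.99), whose protein binds and inhibits CLOCK. *C920021L13Rik* is the antisense gene that spans *Ciart* and shares its reads. *Cipc* had 3267, 2643, 3471 and 3015 normalized counts in the control libraries and 3231, 2794, 2585 and 2901 in the *Fezf2 shRNA* libraries. It varied 1.34 times, against 3.31 times for *Dbp*. The genes most opposite to *Dbp* were *Adam9* (−0.99), *P4ha1* (−0.99), *Synj2* (−0.99), *Gfod1* (−0.99) and *Arid3b* (−0.98). In all, 74 genes had an r over 0.9 and 97 had an r under −0.9.

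Other clock genes in part showed the same division of libraries. Of 23 listed, 17 passed the filter. The D-box activators *Tef* and *Hlf*, the E-box repressor *Bhlhe41* and the deubiquitinase *Usp2*, 4 of the 23 (17.4%), had the same 3 libraries on top, and *Nfil3* and *Arntl2*, 2 of the 23 (8.70%), had them at the bottom. *Tef* had 10025, 7468, 9715 and 8497 normalized counts in the control libraries and 9782, 7897, 7361 and 7569.5 in the *Fezf2 shRNA* libraries. *Bhlhe41* had 803, 554, 1099 and 653 in the control libraries and 968, 615, 554 and 624 in the *Fezf2 shRNA* libraries. Among genes tested outside the members, *Bhlhe41* (r = 0.95 with *Dbp*) had rank 20 of 9951, *Tef* (0.92) rank 48, *Hlf* (0.85) rank 157, *Usp2* (0.82) rank 232 and *Wee1* (0.74), a kinase of the cell cycle with E-boxes in its promoter, rank 474.

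The opposite pattern was that of *Nfil3*, *Arntl2* and *Npas2*. *Nfil3*, the D-box repressor, had 253, 392, 213 and 272 normalized counts in the control libraries and 255, 461, 432 and 302 in the *Fezf2 shRNA* libraries. It was lowest in control replicates 3 and 1 and *Fezf2 shRNA* replicate 1, and its r with *Dbp* was −0.94. *Clock*, the partner of ARNTL, varied only 1.18 times among libraries, from 5114 to 6028 normalized counts, with a log2 fold change of 0.01 (SE 0.0615, adjusted p = 0.919 from edgeR). The kinases and ubiquitin ligase parts that set PER and CRY stability (*Csnk1d*, *Csnk1e*, *Btrc*, *Fbxw11* and *Gsk3b*) varied 1.153 to 1.269 times.

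Between treatments, edgeR called 0 of the 17 other clock genes (2.19% of all genes tested), with 2 at an unadjusted p under 0.05 (19.7% of all genes tested). DESeq2 called those 2, *Npas2* and *Rora* (7.55% of all genes tested). Over the 17, the median log2 fold change was −0.01, and 8 were positive and 9 negative. *Npas2*, which can take the place of CLOCK in the forebrain, had 3204, 4168, 3529 and 3843 normalized counts in the control libraries and 4259, 4934.5, 5047 and 4736 in the *Fezf2 shRNA* libraries. All *Fezf2 shRNA* libraries lay above all control libraries (11.8% of all genes tested did not overlap in either direction), with a log2 fold change of 0.36 (SE 0.0874, adjusted p = 0.0592 from edgeR and 0.00281 from DESeq2). *Rora*, an activator at ROR elements, had 14769, 12629, 17255 and 12013 normalized counts in the control libraries and 20212, 17349, 22369 and 20072 in the *Fezf2 shRNA* libraries. Here too the treatments did not overlap, and the log2 fold change was 0.50 (SE 0.116, adjusted p = 0.0561 from edgeR and 0.00102 from DESeq2).

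Both are long genes (*Npas2* spans 169025 bases and *Rora* 734461 bases), and gene length moved with the treatment in these libraries. The median centred log2 CPM of genes over 100000 bases minus that of genes under 10000 bases was −0.21 to −0.07 in control and 0.00 to 0.20 in *Fezf2 shRNA*-treated samples. With an offset for gene length, the log2 fold change was 0.20 for *Npas2* (adjusted p = 0.448 from edgeR) and 0.16 for *Rora* (adjusted p = 0.609 from edgeR), and that of *Arntl* (106662 bases) was 0.17. *Rora* had an r of 0.43 with *Dbp* (0.71 without control replicate 3 and *Fezf2 shRNA* replicate 3) and −0.70 with *Arntl*, and *Npas2* had an r of −0.87 with *Dbp* and 0.91 with *Arntl*. *Rorb*, the member of the family typical of cortical layer 4, had a log2 fold change of 0.42 (SE 0.209, adjusted p = 0.283 from edgeR) with overlapping treatments.

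The remaining clock genes had values near 0 or a spread too large for a call. The E-box repressor *Bhlhe40* had a log2 fold change of 0.05 (SE 0.160), *Tef* of −0.13 (SE 0.112), *Hlf* of −0.01 (SE 0.118) and *Bhlhe41* of −0.17 (SE 0.222). *Csnk1e* was at −0.14, *Nampt*, which makes the NAD used by clock deacetylases, at −0.14, *Wee1* at −0.08 and *Usp2* at −0.02. *Fbxw11* was at 0.12, *Gsk3b* at 0.08, *Btrc* at 0.03 and *Csnk1d* at −0.01. Under the filter, *Nfil3* was at 0.36 (SE 0.226), *Fbxl21*, another ligase for CRY, at 0.29 (SE 0.201), *Timeless* at 0.13 (SE 0.188), *Arntl2* at −0.10 (SE 0.231) and *Tipin*, the partner of TIMELESS at replication forks, at −0.25 (SE 0.122). None of these genes was called by edgeR or DESeq2.

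**Figure D4:**
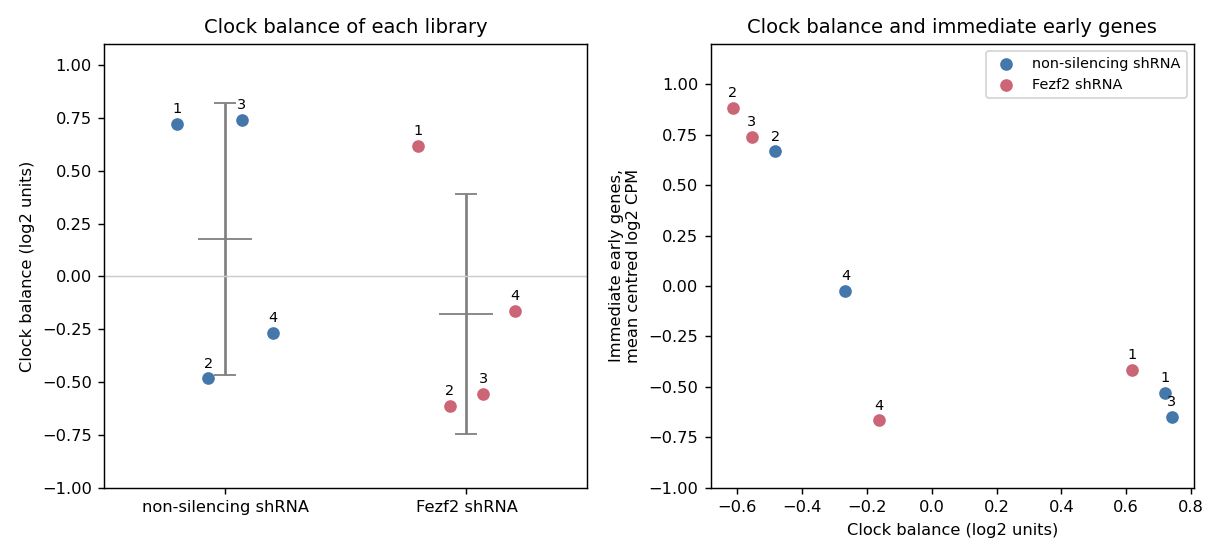
Left, the clock balance (y axis, log2 units) of each library by treatment, with the mean and SD of 4 libraries as bars and the replicate number beside each point. Right, the mean centred log2 CPM of the 7 immediate early genes that passed the filter (y axis) against the clock balance (x axis) for the same 8 libraries; control replicates 1 and 3 and *Fezf2 shRNA* replicate 1, with the highest balance, lie at −0.42 to −0.65 on the y axis, and *Fezf2 shRNA* replicate 4 lies at −0.67 with a balance of −0.16.

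Immediate early genes, which neurons switch on with activity, divided the libraries in nearly the opposite way. *Arc* had 8299, 27214.5, 5877 and 14944 normalized counts in the control libraries and 8989.6, 21396, 22586 and 8832 in the *Fezf2 shRNA* libraries. *Fos* had 686, 1927, 628.5 and 1024 in the control libraries and 656, 2620.0, 2160 and 514 in the *Fezf2 shRNA* libraries. Summed over 10 such genes, the level was 364, 897, 301 and 548 CPM in the control libraries and 393, 845, 838 and 360 CPM in the *Fezf2 shRNA* libraries. All 7 that passed the filter had a negative r with *Dbp*, from −0.92 for *Arc* to −0.54 for *Egr2*. Libraries with a high clock balance were thus low in immediate early RNA, but *Fezf2 shRNA* replicate 4 was low in both. Between treatments, edgeR called 0 of the 7 (2.19% of all genes tested). Their median log2 fold change was 0.32 with all 7 positive, where 4318 of all 9959 genes tested were positive. The SE ran from 0.161 for *Egr1* to 0.516 for *Fos*. The 7 genes varied in part together over the libraries, so their signs are not 7 separate results. The part of neuronal activity in the differences among clock genes was not tested.

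Lists of genes that follow stress hormone and temperature, both of which have daily rhythms, were described in the same way. Of 8 glucocorticoid-responsive genes, 7 passed the filter, with 0 called by edgeR (2.19% of all genes tested). Their median log2 fold change was −0.20, with 6 of 7 negative (5641 of all 9959 genes tested). Their r with *Dbp* ran from 0.03 to 0.73. *Sgk1*, 1 of the 7, had treatments that did not overlap, as had 11.8% of all genes tested (−0.48, SE 0.133, adjusted p = 0.0912 from edgeR and 0.0146 from DESeq2). Of 6 temperature-responsive genes, 0 were called by edgeR (2.19% of all genes tested) and the median was −0.13. The cold-inducible RNA-binding protein genes *Cirbp* and *Rbm3* had an r with *Dbp* of 0.85 and 0.83, and the heat shock genes *Hsph1*, *Hspa8*, *Hsp90aa1* and *Dnajb1* had one of −0.96, −0.63, −0.44 and −0.09. *Cirbp* was highest in control replicate 3 (1337 normalized counts) and *Fezf2 shRNA* replicate 1 (1064), and from 743 to 895 in the other 6. The part of either signal in the clock genes was not tested.

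Cell type markers were described by the same measures. Their median r with *Dbp* was 0.08 for cortical projection neurons, −0.51 for interneurons, 0.56 for astrocytes, −0.48 for oligodendrocytes and 0.49 for microglia. Each of these lists held 5 genes that passed the filter. The 5 oligodendrocyte markers had a median log2 fold change of −0.55 between treatments. All were negative (5641 of all 9959 genes tested), and edgeR called 0 (2.19% of all genes tested). The medians were −0.03 for projection neurons, −0.09 for interneurons, −0.08 for astrocytes and 0.03 for microglia, again with 0 called. Of 4 endothelial markers, 1 passed the filter (0.09), and of 5 markers of meninges and fibroblasts none did. Of 4 markers of the suprachiasmatic nucleus, *Vip*, which cortical interneurons also express, passed it (−0.20, not called), and *Avp* had at most 9.3 normalized counts. Whether a shift in cell types contributes to the spread of the clock genes was not tested.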

How the data were processed

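RNA-seq libraries of M1 from 4 *Fezf2 shRNA*-treated and 4 *non-silencing shRNA*-treated mice were grouped by the titles of the deposited record. According to the methods and processing notes of the submitters, libraries were made with an Illumina TruSeq total RNA kit, base calls were converted with bcl2fastq 1.8.4, reads were aligned to mm10 (GRCm38) with TopHat2 2.1.1, and reads were counted over genomic intervals of Ensembl transcripts with the multiCov function of bedtools 2.26.0. The deposited values used here are these raw counts per transcript, made by the authors with no normalization. A deposited table of the authors' own comparison (base means, fold changes, standard errors, test statistics and p-values from DESeq2 1.10.1 in R 3.2.5) was not used.

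Of 94647 transcripts, 91320 were matched to GENCODE M21, and the 3327 unmatched ones (1.82% of counts) were left out. Each gene was represented by its transcript with the lowest Ensembl number. Genes over 8 CPM in 4 or more libraries were tested with edgeR 4.0.16 in R 4.3.3 (TMM, quasi-likelihood test, Benjamini-Hochberg adjustment, no covariate). The standard error is the absolute log2 fold change divided by the square root of F. To obtain normalized counts, the counts of a library were scaled from its effective size to the mean effective size. Log2 CPM used a prior count of 2. Permutation tests were exact, two-sided and on the difference of mean log2 CPM. The test was tried on simulated data. Replicates are separate animals, and no library differed from another by less than the sampling noise. The replicate numbers of the treatments were not taken as pairs in the main fit. The deviations of same-numbered libraries correlated at 0.31, 0.09, −0.13 and 0.17, and those of other pairs across treatments at −0.23 to 0.27. At 54684016 to 58003814 counts per library, the spread between libraries, and not counting error, limits the precision.

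The text names every member, *Fezf2*, other clock genes of a list of 23, the 5 genes with the highest and the 5 with the lowest correlation with *Dbp*, and members of the lists (activity, glucocorticoid, temperature, cell types). Members of a list outside this rule (*Arc*, *Fos*, *Egr2*, *Cirbp*, *Rbm3*, *Hsph1*, *Hspa8*, *Hsp90aa1*, *Dnajb1*, *Slc17a7*, *Vip*, *Avp*) were picked after their values were seen. Some genes of the list are not reported here but stay in its counts. The members and all lists were chosen with earlier results of these data known. The alternatives were the median of ratios of DESeq2 1.42.0, library totals, more than 1 CPM, no filter, DESeq2 without a prior, the widest transcript, the replicate block, a per-library loess offset for gene length (span 0.3), both together, each library left out, and for the clock balance also a prior count of 0.5, leaving out *Per1*, and the mean of *Arntl* and *Npas2*. Python 3.11.15 with pandas 2.3.3, numpy 2.4.6 and matplotlib 3.10.9 was used for the remaining steps.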

Additional observations from a re-analysis of the deposited data

Results flagged for a closer look

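In *Per2*, the *Fezf2 shRNA* library of replicate 1 stood apart from the other 3 of its treatment. Its 2045 normalized counts lay above 1250.2, 1365.5 and 1274, and the gap to the nearest library made up 0.855 of the range of the group, over Dixon's 95% critical value for 4 samples. This library was also the highest of its treatment in *Per1*, *Per3*, *Dbp*, *Ciart*, *Nr1d1* and *Nr1d2*. Of 22 groups of 4 examined (10 members and the clock balance in each treatment), 1 was past this value, and chance alone marks about 1 in 20. The log2 fold change of *Per2* was −0.19 without this library.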

How the results depend on the processing

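No clock member was called under any alternative run, and of 168 alternative values of the 10 members 147 kept their direction and 21, all uncalled, changed sign. The number of genes called among all tested was 218 and moved to 111 over 1 CPM, 85 with no filter, 752 with DESeq2, 89 with the replicate block, 2 with the gene-length offset and 2 with both, and with 1 library left out the lowest was 0 (control replicate 1 omitted) and the highest 401 (control replicate 2 omitted). The number of other clock genes called was 0, and 2 with DESeq2 (*Npas2* and *Rora*), 1 with the replicate block (*Rora*, 0.51, adjusted p = 0.0439 from edgeR), and from 0 to 1 with 1 library left out. That 1 gene was *Npas2* when control replicate 2 was omitted (0.43, edgeR adjusted p = 0.0272), and *Rora* without control replicate 3 (0.62, edgeR adjusted p = 0.0332) or without *Fezf2 shRNA* replicate 2 (0.56, adjusted p = 0.0398 from edgeR). *Fezf2* was called by DESeq2 (−0.28, adjusted p = 0.0256) and by none of its other alternatives, where adjusted p from edgeR was 0.126 with the replicate block (−0.29) and 0.433 with the gene-length offset (−0.18).

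The genes whose sign turned in the fits below had a main log2 fold change from −0.17 (*Bhlhe41*) to 0.08 (*Gsk3b*). Their values with 1 library left out ranged wider, as for *Ciart*. *Per2* (0.00) was at −0.022 with library totals, −0.010 with the block, −0.0072 with the length offset and −0.022 with both. With the length offset and with both, *Nr1d1* was at 0.016 and 0.015, *Ciart* at 0.074 and 0.094 (0.0040 with the block alone), *Clock* at −0.072 and −0.071 (−0.013 with library totals), *Csnk1d* at 0.017 and 0.018 (0.00034 with no filter), *Btrc* at −0.13 and −0.13, *Gsk3b* at −0.078 and −0.078 and *Usp2* at 0.0065 and 0.011. *Hlf* was at 0.00024 with the median of ratios, 0.0025 with no filter and 0.00023 with DESeq2. With 1 library left out, *Arntl* kept its sign from 0.16 (without *Fezf2 shRNA* replicate 2) to 0.40 (without control replicate 2), *Per3* from −0.30 (without *Fezf2 shRNA* replicate 1) to −0.020 (without control replicate 3) and *Cry1* from 0.028 (without *Fezf2 shRNA* replicate 2) to 0.21 (without control replicate 2), and the range was −0.080 to 0.15 for *Per1*, −0.19 to 0.082 for *Per2*, −0.18 to 0.056 for *Nr1d2*, −0.38 to 0.19 for *Ciart*, −0.012 to 0.059 for *Clock*, −0.24 to 0.10 for *Arntl2*, −0.10 to 0.071 for *Hlf*, −0.11 to 0.16 for *Bhlhe40*, −0.38 to 0.051 for *Bhlhe41*, −0.045 to 0.023 for *Csnk1d*, −0.017 to 0.10 for *Btrc*, −0.078 to 0.056 for *Usp2* and −0.12 to 0.0054 for *Wee1*. The cause of these changes was not tested, other than that both offsets take out a trend with gene length.

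The clock balance kept its direction under each of its alternatives, and its difference between treatments was −0.20 with the gene-length offset and ran from −0.62 to −0.17 with 1 library left out. The replicate numbers were not taken as pairs. Of the libraries, 2 of 4 control and 2 of 4 *Fezf2 shRNA* ones correlated best with their own number. The clock balance in control and *Fezf2 shRNA* was 0.72 and 0.62 for number 1, −0.48 and −0.61 for number 2, 0.74 and −0.56 for number 3, and −0.27 and −0.16 for number 4. These values cannot decide whether same-numbered libraries belong together. With 4 animals a treatment, the standard error of the log2 fold change, from 0.0511 for *Cry2* to 0.346 for *Dbp*, limits which differences between treatments could be seen, and the hour of dissection is not given in the sources used here.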
